A study of Mus musculus with 16 samples.

Results

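Myoc, Serpinf1, Dsp, Hopx, Cald1, Rtp1, Prelp and Cybrd1 are 8 mouse genes that were taken out of 24060 gene labels because their level was high in astrocyte RNA of the hippocampus and low in astrocyte RNA of the striatum. They were chosen by their measured levels in the immunoprecipitated libraries of the 2 regions. Their levels in those libraries, and every ratio that uses those libraries, are therefore given as a description and carry no test. The unprecipitated libraries of the 2 regions did not enter the choice, and the tests of the 8 genes compare those libraries. The error in these tests was estimated from all 16 libraries, the immunoprecipitated ones included.

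The data were RNA sequencing libraries from the hippocampus and the striatum of 4 adult mice at postnatal day 63. All 4 animals carried 1 genotype, Aldh1l1-creERT2 hemi with Ribotag het, on an FVB background backcrossed to C57/Bl6N for 3 generations. In this model an inducible Cre under the Aldh1l1 astrocyte promoter switches a hemagglutinin (HA) tag onto the ribosomal protein Rpl22, so RNA on tagged ribosomes can be pulled down with an HA antibody. The numbers 970, 971, 974 and 977 in the labels were read as the 4 animals. Each animal gave 4 libraries: cleared lysate (input) and HA precipitate (IP) of each region. The 4 groups, hippocampal input, hippocampal IP, striatal input and striatal IP, thus held 4 libraries each. There was no mouse without Cre or without the tag among these samples. The mice were male and female, and which animal was which sex was not used here. All levels are scaled FPKM (fragments per kilobase of gene and sequencing depth, after scaling between libraries), so levels of different genes are compared per length. Differences are on the log2(scaled FPKM + 1) scale, which understates changes of low genes. In bulk RNA of this kind, fewer cells of a type and less RNA per cell cannot be told apart.

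Astrocytes differ between brain regions, and the hippocampus holds several zones with astrocytes of distinct shape, among them the dentate gyrus with its radial stem cells and the tissue surface under the meninges. Most of the 8 genes are better known outside the brain. Myoc encodes myocilin, a secreted glycoprotein with an olfactomedin domain that is abundant in the eye's outflow tissue and is mutated in inherited glaucoma. Serpinf1 encodes pigment epithelium-derived factor (PEDF), a secreted serpin without protease-inhibiting activity that is known as an inhibitor of vessel growth and a survival factor for neurons. Prelp encodes a leucine-rich repeat protein of the extracellular matrix that binds heparan sulfate and collagen. Dsp encodes desmoplakin, the plakin that ties desmosomes to intermediate filaments. Cald1 encodes caldesmon, which binds actin, tropomyosin and calmodulin. Hopx encodes a small homeodomain protein that does not bind DNA and marks several adult stem cell populations, including radial stem cells of the dentate gyrus. Rtp1 encodes a receptor transporter that carries odorant receptors to the surface of olfactory neurons, and Cybrd1 a ferric reductase of the cytochrome b561 family that was first described in the gut.

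The sequences just before the start of 4 of the genes are shown because these genes were all high in hippocampal and low in striatal IP, by the way they were chosen, and a reader may want to compare the letters upstream of them. They come from RefSeq (GRCm38.p6), which held 9 windows for 7 of the 8 genes, all but Rtp1. Each window runs from 250 bases before a gene's start to 50 bases after it, and only the 250 bases before the start are printed, 5′ to 3′ on the gene's strand. Capitals mark the motifs searched on both strands. The search covered TATAAA of core promoters and the homeodomain core TAATTA. It also covered TTCNNNGAA, bound by STAT factors, and TTGGC, which is only a part of the nuclear factor I site and reads GCCAA on the opposite strand. The SOX motif was ACAATG with its variant form ACAAAG, whose reverse complement is printed as CTTTGT, and the CArG box was searched under its usual definition. Positions are counted from the start, with -1 the base before it. The windows are Myoc at chr1:162638900-162639149 (plus strand), Serpinf1 at chr11:75422624-75422873 (minus strand), Hopx at chr5:77115124-77115373 (minus strand) and Prelp at chr1:133921402-133921651 (minus strand).
Myoc: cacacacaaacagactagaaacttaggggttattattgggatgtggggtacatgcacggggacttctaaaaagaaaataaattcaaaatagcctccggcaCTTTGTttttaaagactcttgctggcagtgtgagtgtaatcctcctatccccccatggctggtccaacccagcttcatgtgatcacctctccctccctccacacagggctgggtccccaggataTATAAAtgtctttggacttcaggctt
Serpinf1: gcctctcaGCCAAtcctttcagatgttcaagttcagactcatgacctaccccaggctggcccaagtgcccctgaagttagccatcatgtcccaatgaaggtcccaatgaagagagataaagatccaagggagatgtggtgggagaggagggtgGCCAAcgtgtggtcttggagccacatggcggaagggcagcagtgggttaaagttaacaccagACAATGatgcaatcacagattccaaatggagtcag
Hopx: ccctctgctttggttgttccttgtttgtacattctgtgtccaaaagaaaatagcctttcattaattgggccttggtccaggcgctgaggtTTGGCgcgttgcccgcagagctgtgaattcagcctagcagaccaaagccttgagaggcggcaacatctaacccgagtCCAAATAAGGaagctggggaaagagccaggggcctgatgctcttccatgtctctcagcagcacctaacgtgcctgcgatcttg
Prelp: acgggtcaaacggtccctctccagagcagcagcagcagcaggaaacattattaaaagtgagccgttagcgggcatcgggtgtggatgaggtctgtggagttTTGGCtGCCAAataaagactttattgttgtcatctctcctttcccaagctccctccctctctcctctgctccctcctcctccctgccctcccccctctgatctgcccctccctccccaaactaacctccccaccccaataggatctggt

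Myoc held TATAAA from position -26, a motif found in 13.6% of 32851 windows of the same length (300 bases) over all genes, and CTTTGT from position -150 (either SOX variant strand, 18.7% of windows). Serpinf1 held ACAATG from position -35 (12.6% of windows) and GCCAA from positions -242 and -97. In Prelp, TTGGC from position -149 and GCCAA from position -143 stood 1 base apart on opposite strands. In its printed window Hopx held TTGGC from position -160 and a CArG box, the element bound by serum response factor, from position -83 (1.63% of windows). The other Hopx window and the windows of Dsp and Cybrd1, which are not printed, held no motif searched. TTGGC, only a part of the nuclear factor I site, was in 5 of the 9 windows, from 4 genes, and in 46.7% of all windows. The whole site was not searched. TAATTA (5.29% of windows) and TTCNNNGAA (8.30%) were in 0 of the 9. No motif searched was common to the 7 genes that had a window, and a match describes letters only.

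In the GENCODE annotation (GRCm38) the genes lie on 7 chromosomes and all are protein-coding. Myoc (chr1:162639155-162649693) and Prelp (chr1:133910304-133921414) share chromosome 1, on opposite strands. The others are Serpinf1 (chr11:75409769-75422701), Dsp (chr13:38151294-38198577), Hopx (chr5:77086988-77115121), Cald1 (chr6:34598500-34775473), Rtp1 (chr16:23429133-23433960) and Cybrd1 (chr2:71117923-71142926). For 4 genes an annotated gene on the other strand shares exon bases, namely Myocos with Myoc (93 bases), Gm10129 with Dsp (499), Hopxos with Hopx (412) and Gm15851 with Prelp (350). The library kit does not mark strand, so reads from these stretches cannot be told apart.

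Of all labels, 13449 genes passed the filter on low values (at least 1 FPKM in at least 4 libraries), the 8 genes among them. Rtp1 passed through the 4 hippocampal IP libraries and 1 hippocampal input. In units of 1000000 fragments, the estimated depth of the hippocampal inputs lay between 9.04 and 12.2 and that of the striatal inputs between 4.15 and 8.93, while the IPs had 18.83 to 22.54 (hippocampus) and 13.94 to 21.69 (striatum). The astrocyte label fitted the IPs in both regions. Aldh1l1, the folate enzyme gene whose promoter drives Cre, stood at 110 ± 11.3 (SD, n = 4) in hippocampal and 105 ± 27.6 in striatal IP against 4.53 ± 1.35 and 4.29 ± 1.05 in the inputs. All 12 of 12 astrocyte markers tested were higher in IP than in input in each region, and of 8 pan-neuronal markers 8 were lower in hippocampal IP and 6 in striatal IP (limma, adjusted p under 0.05). Across all genes, 65.5% were called between hippocampal IP and input (30.1% higher and 35.4% lower in IP), and in striatum 33.5% were higher and 31.4% lower in IP. Rpl22, the tagged gene, was at 3.42 ± 0.252 and 3.12 ± 0.211 in the IPs and at 3.92 ± 0.0443 and 3.08 ± 0.492 in the inputs, and its level does not show the tag. The striatal inputs of animals 971 and 974 stood apart from those of 970 and 977 in some measures. They were the shallowest of the 16 libraries (5.78 and 4.15, against 6.68 and 8.93 in 970 and 977). Their 8 pan-neuronal markers summed to 1835 and 1989 against 1389 and 1241, their 11 mural markers to 67.5 and 57.2 against 46.2 and 38.9, and their Gfap level was 1.56 and 1.05 against 3.09 and 3.83. The pairs were not split this way by the sums of astrocyte markers (793 and 775 against 782 and 666) or oligodendrocyte markers (362 and 417 against 434 and 416). Nor were they by those of microglia markers (118 and 151 against 121 and 115). Input tests of the 8 genes whose call changed without the striatal inputs of 971 and 974 are given both ways below.

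**Figure D1:**
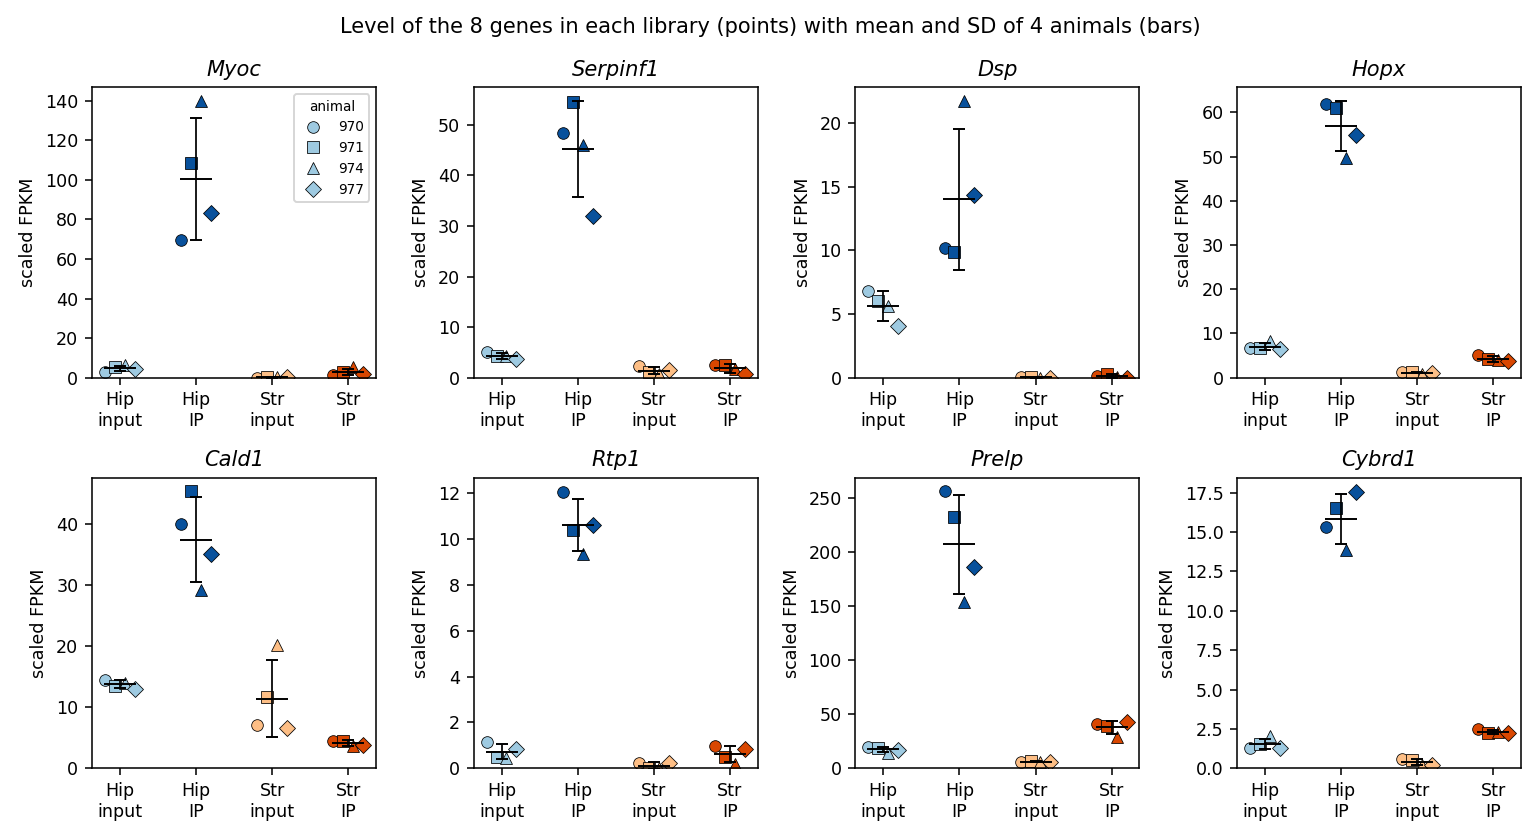
Scaled FPKM (linear axis from 0, a scale of its own for each gene) of the 8 genes in hippocampal and striatal input and IP; points are libraries, the symbol gives the animal, and bars give the mean and SD of 4 animals. For each gene the 4 hippocampal IP libraries sit above all other libraries, and Cald1 in striatal input spreads from 6.59 to 20.2.

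The 8 genes were highest in hippocampal IP, and its place above striatal IP follows from the rule that chose them. They differed in the order of the other 3 groups. Hippocampal input came next for Myoc, Serpinf1, Dsp, Hopx, Cald1 and Rtp1, while striatal IP came next for Prelp and Cybrd1. For Hopx, Prelp and Cybrd1 no neighbours in the order overlapped. Hippocampal input and striatal IP overlapped for Myoc and Rtp1, striatal IP and striatal input for Serpinf1, Dsp and Rtp1, and the 2 inputs for Cald1. Striatal input was lowest for all but Cald1, whose lowest group was striatal IP.

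With 1 added to each value, Myoc had the highest hippocampal to striatal IP difference of all genes tested. With 0.1 added Dsp was higher (6.01 against 5.16 for Myoc). The Myoc level in hippocampal IP was 69.8, 109, 140 and 83.5 in animals 970, 971, 974 and 977 (100.4 ± 30.8, SD, n = 4). In striatal IP it was 1.5, 3.04, 5.23 and 1.91 in the same order (2.92 ± 1.67). The animals had the same order in both IPs, with 974 highest, then 971, 977 and 970, and the groups did not overlap, as held for 9.34% of all genes with hippocampus on top. The difference was 4.73 ± 0.27 (SE), and striatal IP held 2.91% of the hippocampal IP level. Hippocampal input was at 2.81, 5.52, 6.17 and 4.15, again lowest in 970 and highest in 974, and IP over input in hippocampus ran only from 19.6 to 24.9 across animals. The spread of Myoc between animals was thus shared by input and IP, with 30.7% (coefficient of variation) in hippocampal IP and 32.1% in hippocampal input.

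Myoc RNA was also present in whole hippocampus and near absent from whole striatum. Striatal input stood at 0, 0.307, 0.116 and 0.37, which is an estimated 0, 4, 1 and 9 fragments. All 4 hippocampal inputs were above all 4 striatal inputs, and Myoc was higher in hippocampal input by 2.21 ± 0.27 (limma, adjusted p = 9.63e-06, higher in 4 of 4 animals). Of the 7 other olfactomedin domain genes tested, 2 were higher and 0 lower in hippocampal IP, against 5.37% of all genes called higher and 7.18% lower there. They were Olfml1, a secreted family member (31.3 ± 2.34 against 19.6 ± 2.15, log2 difference 0.65, adjusted p = 0.027), and the mainly neuronal Olfm1 (13.1 ± 1.55 against 6.18 ± 0.960, 0.97, adjusted p = 0.000553). Without scaling between libraries 1 of these was called. Olfml1 was enriched in both IPs over input, by 2.76 and 1.81, and Olfm1 was lower in both, by -2.77 and -0.96 (adjusted p from 2.98e-10 to 6.85e-05).

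Serpinf1, the PEDF gene, also had a large difference between the IPs. Its hippocampal IP level was 48.4, 54.5, 46.1 and 32.1 (45.3 ± 9.48), and its striatal IP level was 2.54, 2.50, 1.74 and 0.692 (1.87 ± 0.865). Animal 977 was lowest in both regions. The difference was 4.05 ± 0.24, with 4.12% of the hippocampal level in striatal IP. In hippocampus each IP was above its input (5.11, 4.34, 4.31 and 3.65), by 8.78- to 12.5-fold. In striatum it was not in every animal: IP over input was 1.13, 2.12, 2.68 and 0.482, over inputs of 2.25, 1.18, 0.648 and 1.44. These inputs are an estimated 44, 17, 6 and 39 fragments. The log2 difference between striatal IP and input was 0.25 ± 0.24, about its own error.

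In input, Serpinf1 was 1.21 ± 0.24 higher in hippocampus (limma, adjusted p = 0.00093, higher in 4 of 4 animals), and the inputs did not overlap. Of 11 other serpins tested, 3 were higher and 1 lower in hippocampal IP, and none differed by more than 0.92 on the log2 scale. Serpine2, which encodes the protease inhibitor nexin-1, was far more abundant than Serpinf1 and close between the IPs (734 ± 64.9 against 541 ± 97.3, log2 difference 0.45, adjusted p = 0.05 after rounding). Serpini1, the neuronal neuroserpin gene, was at 0.68 (adjusted p = 0.00644), the complement inhibitor gene Serping1 at 0.68 (adjusted p = 0.0276) and Serpinb1a at -0.92 (adjusted p = 0.00083). Without scaling 1 was higher and 1 lower. Among 5 genes of proposed PEDF receptors 1 was higher and 1 lower (1 and 0 without scaling), the higher being the transmembrane receptor gene Plxdc2 (17.5 ± 0.936 against 9.33 ± 1.49, 0.85, adjusted p = 0.0071).

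Prelp was the most abundant of the 8 genes and the one with the most RNA left in striatal astrocytes. Its hippocampal IP level was 256, 233, 154 and 186 (207 ± 46.1). In striatal IP it was 40.8, 39.1, 29.0 and 43.2 (38.0 ± 6.23), lowest in animal 974 as in the hippocampus. The IP difference was 2.40 ± 0.16 and ranked 14 among all genes tested. Striatal IP held 18.3% of the hippocampal level, the highest share of the 8 genes. Prelp was enriched on tagged ribosomes in every animal in both regions, 10.7- to 12.9-fold in hippocampus and 4.72- to 7.21-fold in striatum. The word restricted, under which these genes were grouped, goes against the striatal values of Prelp: 38.0 in striatal IP is above the mean hippocampal IP level of Dsp, Rtp1 and Cybrd1.

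In input, Prelp stood at 19.9, 18.4, 14 and 17.4 in hippocampus and at 5.98, 6.55, 6.16 and 6 in striatum, with no overlap. The difference was 1.35 ± 0.16 (limma, adjusted p = 6.02e-06, higher in 4 of 4 animals). Prelp belongs to the small leucine-rich proteoglycans of the matrix. Of 8 other members tested, 5 were higher and 1 lower in hippocampal IP, with a median log2 difference of 1.03 against 0.02 over all genes, and the counts were the same without scaling. Ecm2 (7.49 ± 1.51 against 0.894 ± 0.293, log2 difference 2.16, adjusted p = 2.87e-05), biglycan (Bgn, 20.9 ± 2.30 against 4.71 ± 0.140, 1.93, adjusted p = 2.52e-05) and fibromodulin (Fmod, 2.41 ± 0.862 against 0.265 ± 0.222, 1.41, adjusted p = 0.00165) were higher. Epiphycan (Epyc) went the other way, at 0.189 ± 0.0788 in hippocampal and 2.49 ± 0.965 in striatal IP (-1.51, adjusted p = 0.000959). Of these 8 proteoglycan genes, 2 were higher and 4 lower in hippocampal IP than in hippocampal input, and in striatum 1 was higher and 6 lower. Without the striatal inputs of 971 and 974 these counts were 3 and 4 in hippocampus and 1 and 2 in striatum. Bgn was one of those higher (1.49, adjusted p = 2.62e-05).

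Dsp was the nearest of the 8 to an on and off pattern between regions. Its hippocampal IP level was 10.2, 9.87, 21.7 and 14.3 (14 ± 5.52). Striatal IP was at 0.169, 0.327, 0.0497 and 0.00716, an estimated 27, 54, 7 and 1 fragments, and striatal input at 0.0625, 0.0166, 0 and 0.00892, an estimated 5, 1, 0 and 1 fragments. Mean hippocampal IP was 101-fold above mean striatal IP, and the log2 difference with 1 added to each value was 3.66 ± 0.20. Striatal IP over input cannot be read at these counts.

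Unlike Myoc, Dsp was little enriched on tagged ribosomes. Hippocampal input held 6.84, 6.02, 5.63 and 4.08, so IP over input was 1.49 and 1.64 in animals 970 and 971 and 3.86 and 3.51 in 974 and 977. Its fold of means, 2.48, was the lowest of the 8 genes in hippocampus. Neuronal markers also differed between these pairs of animals. For dentate granule neuron markers the median IP level, as a percent of input, was 19.2 and 14.8 in 970 and 971 and 35.0 and 38.6 in 974 and 977, and in striatum 25.5 and 21.3 against 68.8 and 65.0. For hippocampal principal neuron markers it was at most 7.35 in 970 and 971 and 15.3 and 10.8 in 974 and 977 in hippocampus. Of the 9 dentate markers, only Dock10, Trpc6, Prox1 and C1ql2 were read animal by animal. Dock10 (1.77, 1.65, 4.31 and 3.42 in hippocampal IP) and Trpc6 (0.488, 0.305, 1.38 and 1.01) had the same order of pairs. The defining granule cell markers Prox1 (15.3, 14.3, 16.1 and 14) and C1ql2 (0.518, 0.550, 0.508 and 0.535) did not. The 9 markers summed to 44.2 to 53.2 in hippocampal IP, 107 to 126 in hippocampal input, 34.3 to 40.2 in striatal IP and 68.7 to 109 in striatal input, and 0 of 9 were at 0 in all libraries of either IP. Of the 9, 0 were higher and 8 lower in hippocampal IP than in input. Their part in the Dsp level was not tested.

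In input, Dsp had the largest region difference of the 8, 2.68 ± 0.20 (limma, adjusted p = 2.62e-08, higher in 4 of 4 animals, no overlap). Of 8 other desmosome and plakin genes tested in input, 2 were higher and 1 lower in hippocampus (3 and 0 without scaling). This count is near the shares over all genes, 21.8% higher and 14.5% lower. The higher 2 were plakophilin 2 (Pkp2), a desmosomal plaque gene, at 21.3 ± 1.14 against 4.36 ± 2.39 (log2 difference 2.15, adjusted p = 8.73e-07), and Pkp4 at 35.5 ± 2.06 against 20.1 ± 5.02 (0.82, adjusted p = 0.000673). Between the IPs 1 of the 8 was higher and 1 lower, with a median of 0.03. They were the armadillo-repeat junction gene Pkp4 (11.3 ± 1.48 against 7.24 ± 1.46, log2 difference 0.59, adjusted p = 0.0178), and plectin (Plec, 1.53 ± 0.385 against 2.59 ± 0.539, -0.51, adjusted p = 0.0189). Without scaling 0 were higher and 1 was lower. Of the 17 listed, 9 did not pass the filter on low values and were not tested. Plakoglobin (Jup), the catenin that binds desmoplakin at the desmosome, stood at 18.0 in hippocampal and 17.5 in striatal IP, and Pkp2 at 4.64 and 2.56 (0.64, adjusted p = 0.0639). Pkp2 and Jup are listed genes that were named after their values were seen.

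Cald1 was the exception among the 8 in tissue RNA. Its hippocampal IP level was 40.1, 45.5, 29.3 and 35.2 (37.5 ± 6.92) and its striatal IP level 4.51, 4.52, 3.68 and 3.76 (4.12 ± 0.460), a difference of 2.90 ± 0.24 with no overlap. Hippocampal input was nearly constant at 14.5, 13.6, 14 and 13. Striatal input was 7.11, 11.7, 20.2 and 6.59, with animals 971 and 974 above the other 2. So Cald1 was above input in hippocampal IP in all 4 animals (2.09- to 3.36-fold) and below input in striatal IP in all 4 (0.635, 0.388, 0.183 and 0.571 of input).

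Cald1 was the only one of the 8 genes that did not pass the test in input. The region difference there was 0.38 ± 0.24 (95% interval -0.13 to 0.89, limma, adjusted p = 0.226, higher in hippocampus in 3 of 4 animals). The overlap came from the striatal input of animal 974. Without the 2 striatal inputs that stood apart the difference was 0.91 (limma, adjusted p = 0.000234), and without animal 974 it was 0.67 (adjusted p = 0.0122). The first of these fits keeps 2 striatal inputs, at 7.11 and 6.59. It leaves out the 2 highest Cald1 levels in striatal input, 11.7 and 20.2, and the other fit leaves out the highest. Neither is therefore an independent test of Cald1. Caldesmon is a known product of vascular smooth muscle. The striatal inputs of 971 and 974 had the highest mural sums, led by the pericyte gene Rgs5 (25.5, 50.04, 42.5 and 18.8 in the striatal inputs). The smooth muscle marker Acta2 was at 0.700, 0.621, 0.658 and 0.799 there. The mural list of 11 markers summed to 39.4 to 51.3 in hippocampal input, 38.9 to 67.5 in striatal input, 17.4 to 20.2 in hippocampal IP and 16.9 to 19.2 in striatal IP, 0 of the 11 were at 0 in all libraries of a group, and Acta2 and Myh11, another smooth muscle marker, were at 0.572 and 0.0687 in hippocampal and 0.631 and 0.0770 in striatal IP. Of 7 mural markers tested, 1 was higher (Cspg4, 0.44, adjusted p = 0.0138) and 0 lower between the IPs, and 0 were called without scaling. Their part in the Cald1 level was not tested.

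Of 13 other actin filament and contractile genes tested, 1 was higher, 3 were lower and 9 did not pass between the IPs, with a median of 0.04. The higher one was the calponin gene Cnn3 (125 ± 11.3 against 84.1 ± 15.7, log2 difference 0.58, adjusted p = 0.0411), which was not called without scaling. Alpha-actinin 1 (Actn1, 3.54 ± 0.942 against 10.5 ± 3.47, -1.32, adjusted p = 0.000195), non-muscle myosin heavy chain (Myh10, 14.3 ± 1.89 against 31.9 ± 8.78, -1.08, adjusted p = 0.000231) and tropomyosin 1 (Tpm1, 1.98 ± 0.254 against 3.39 ± 0.927, -0.54, adjusted p = 0.0433) were lower. Without scaling the count was 0 higher and 2 lower.

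Hopx varied little between animals. Hippocampal IP was at 62.0, 60.9, 49.7 and 54.9 (56.9 ± 5.72) and striatal IP at 5.08, 4.21, 3.93 and 3.72 (4.23 ± 0.599), with a coefficient of variation of 10.1% and 14.2%. The difference was 3.47 ± 0.12, the smallest standard error of the 8. Hopx was also enriched on tagged ribosomes in striatum, where IP was 3.39- to 4.19-fold above input in each animal. The striatal inputs held few Hopx fragments, an estimated 16, 12, 6 and 18. Hippocampal input was at 6.65, 6.83, 8.22 and 6.47 and striatal input at 1.30, 1.24, 0.938 and 1.02, without overlap, and the difference of 1.92 ± 0.12 had the smallest p of the 8 (limma, adjusted p = 2.57e-09, higher in 4 of 4 animals).

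Genes of proteins that Hopx is known to work with were also examined. Of 7 tested, which include serum response factor, histone deacetylases and Smads, 0 were higher and 1 lower in hippocampal IP (0 and 2 without scaling). Over all genes 5.37% were higher and 7.18% lower, and with so few genes a count near these shares describes no trait of the partners. The lower one was Mkl2, a co-activator of serum response factor (7.22 ± 1.14 against 10.9 ± 2.55, log2 difference -0.52, adjusted p = 0.0224). Since Hopx is used as a marker of dentate stem cells, markers of progenitors and newborn neurons were read beside it. Of 7 tested, 0 were higher and 5 lower in hippocampal than in striatal IP, with and without scaling. The mitosis enzyme gene Top2a was at 0.886 ± 0.424 against 11 ± 5.15 (-2.62, adjusted p = 8.70e-07), and doublecortin (Dcx), the marker of newborn neurons, at 0.420 ± 0.111 against 2.32 ± 0.780 (-1.20, adjusted p = 2.60e-05). The 12 markers summed to 23.0 to 29.3 in hippocampal IP and 38.7 to 74.1 in striatal IP, and to 18.8 to 23.5 and 19.3 to 29.6 in the inputs, where 2 of 12 were at 0 in all striatal libraries. Their part in the Hopx level was not tested.

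Rtp1 was the lowest of the 8 genes in hippocampal IP, yet steady. It stood at 12.1, 10.4, 9.33 and 10.6 (10.6 ± 1.13) there and at 0.960, 0.502, 0.196 and 0.857 (0.629 ± 0.349) in striatal IP, an estimated 50, 27, 9 and 39 fragments. The difference was 2.85 ± 0.17 on the log2 scale, and the fold of means was 16.9. Hippocampal IP was 10.6- to 21.5-fold above input in the 4 animals. Hippocampal input held 1.14, 0.486, 0.440 and 0.827, and striatal input 0.230, 0, 0 and 0.246, an estimated 6, 0, 0 and 9 fragments. Animals 970 and 977 were the higher 2 in both inputs and in striatal IP.

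At these low levels the input test was the least firm of the 7 that passed. Rtp1 was 0.61 ± 0.17 higher in hippocampal input (limma, adjusted p = 0.0101, higher in 4 of 4 animals). The call was lost without the striatal inputs of 971 and 974 (0.46, adjusted p = 0.116), without animal 971 (0.63, adjusted p = 0.0617) and with 5 added to each value (0.16, adjusted p = 0.0548), and without animal 970 the gene did not pass the filter on low values. Among 6 other receptor transporter and Reep genes tested, which handle membrane proteins in the endoplasmic reticulum, 0 were higher and 0 lower between the IPs (limma, adjusted p under 0.05). Reep5 was at 145 ± 12.7 and 117 ± 17.9 (0.32, adjusted p = 0.176), and Reep3 at 20.5 ± 2.19 and 16.6 ± 2.38 (0.29, adjusted p = 0.203).

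Cybrd1 had the smallest IP difference of the 8 with 1 added, and Prelp with 0.1 added (2.43 against 2.71 for Cybrd1). Hippocampal IP was at 15.3, 16.5, 13.9 and 17.6 (15.8 ± 1.59), and striatal IP at 2.50, 2.26, 2.30 and 2.23 (2.32 ± 0.122), a difference of 2.34 ± 0.13 with 14.7% of the hippocampal level left in striatum. Like Prelp and Hopx it was above input in every IP, 6.87- to 13.5-fold in hippocampus and 4.18- to 11.3-fold in striatum. Hippocampal input was at 1.31, 1.55, 2.02 and 1.30 and striatal input at 0.598, 0.520, 0.231 and 0.197. The latter is an estimated 27, 17, 5 and 12 fragments, so the striatal folds rest on low counts. The inputs did not overlap, and the difference was 0.88 ± 0.13 (limma, adjusted p = 4.92e-05, higher in 4 of 4 animals).

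Iron handling and cytochrome b561 genes moved in both directions beside Cybrd1. Of 16 tested, 5 were higher and 1 lower in hippocampal IP (median 0.21), or 4 and 1 without scaling. Tfrc, the transferrin receptor gene that brings iron into cells, was at 54.3 ± 4.14 against 28.3 ± 5.98 (log2 difference 0.94, adjusted p = 0.000601), and its regulator Hfe at 4.22 ± 0.949 against 1.55 ± 0.332 (1.02, adjusted p = 0.00265). Both rose in IP over input in each region (adjusted p from 2.79e-07 to 0.00377). Frrs1l, a ferric reductase relative that is part of AMPA receptor assembly in neurons, was at 18.5 ± 0.253 against 6.08 ± 1.16 (1.48, adjusted p = 1.30e-05) and fell by 2.43 in hippocampal IP against input. Transferrin (Trf), which oligodendrocytes make, was at 2.96 ± 0.662 against 8.02 ± 3.65 (-1.10, adjusted p = 0.0119).

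**Figure D2:**
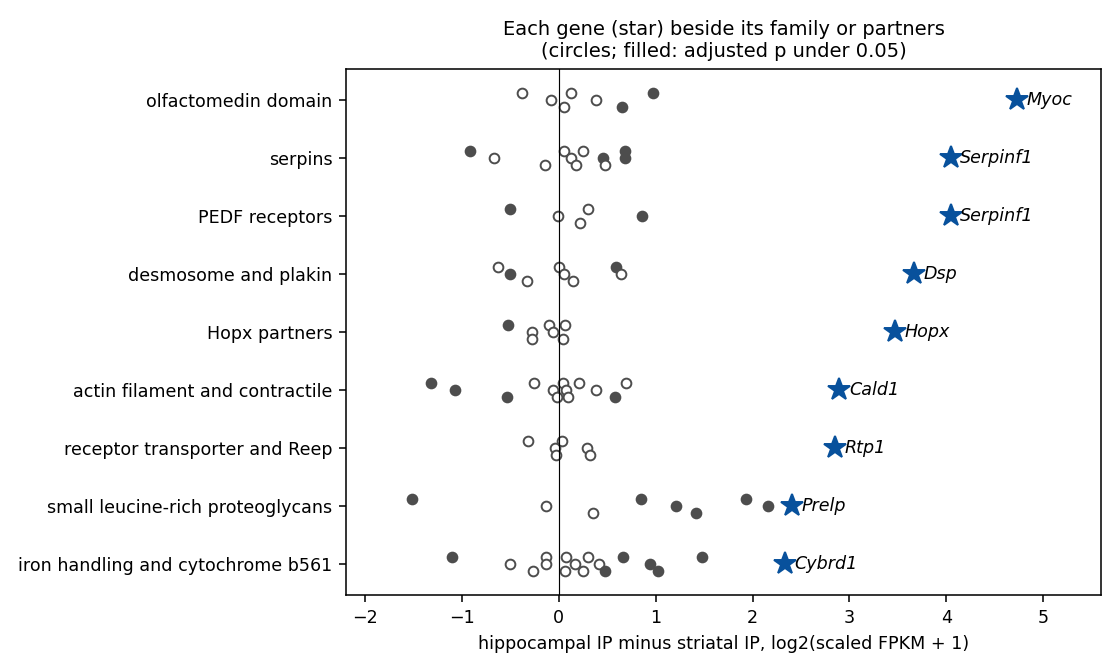
Hippocampal minus striatal IP on the log2(scaled FPKM + 1) scale for each of the 8 genes (stars) and for the genes of its family or partner list (circles, filled where the adjusted p is under 0.05). Each star, a gene chosen for this difference, lies to the right of its relatives, and the proteoglycans around Prelp reach furthest, up to 2.16 for Ecm2.

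Set side by side, 7 of the 8 genes were higher in hippocampal than in striatal input, the contrast whose libraries the choice did not use. Of all genes tested, 36.3% were called there, 21.8% higher in hippocampus and 14.5% lower. Rtp1 was in the test through its hippocampal IP libraries, and leaving it aside the count was 6 of 7. Those 7 called genes had no overlap between the inputs, as had 19.5% of all genes. The input libraries came from the same animals and lysates as the IPs, and they contain the astrocyte RNA too. With 1 added, Dsp (2.68), Myoc (2.21) and Hopx (1.92) led in input, followed by Prelp (1.35), Serpinf1 (1.21), Cybrd1 (0.88), Rtp1 (0.61) and Cald1 (0.38). This order depends on the added constant. With 0.1 added Rtp1 (2.08), Cybrd1 (1.84) and Serpinf1 (1.70) were above Prelp (1.47), and with 5 added Prelp (0.997) was above Myoc (0.881). The count was 7 with the animal as a block in the fit and 7 without scaling. In a fit of only the 2 input groups, whose error does not draw on the IPs, the count was also 7 (3660 genes called in all, against 4886). Without the 2 striatal inputs that stood apart it was 7 as well, with Cald1 in and Rtp1 out. Those 2 inputs held the highest Cald1 levels in striatal input.

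**Figure D3:**
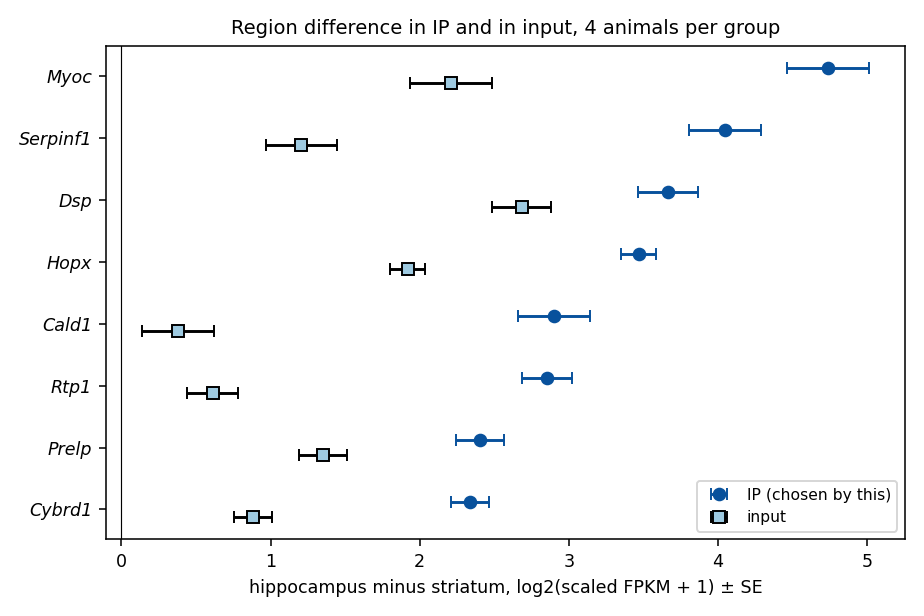
Hippocampus minus striatum for the 8 genes on the log2(scaled FPKM + 1) scale, with SE from the fit of 16 libraries; circles are IP, by which the genes were chosen, and squares are input. Input differences run from 0.38 (Cald1) to 2.68 (Dsp), and the bars of Cald1 and Rtp1 lie nearest to 0.

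On tagged ribosomes the 8 genes fell into unlike patterns. In hippocampus and with 1 added, IP over input was highest for Myoc (log2 difference 4.15), Prelp (3.48) and Serpinf1 (3.09), followed by Hopx (2.85), Rtp1 (2.77) and Cybrd1 (2.73), and lowest for Cald1 (1.37) and Dsp (1.13). The order in the middle depends on the added constant: by fold of means Rtp1 (14.7) was above Prelp (11.9), Serpinf1 (10.4), Cybrd1 (10.2) and Hopx (8.08). The median of the 12 astrocyte markers was 4.04 in the same libraries, so Myoc was near it and the other 7 genes below. In striatum, Prelp (2.43), Myoc (1.63), Hopx (1.30) and Cybrd1 (1.27) were still above input, and Cald1 was below (-1.15, or -0.62 without the inputs of 971 and 974). Serpinf1 stood at 0.25. Rtp1 (0.52) and Dsp (0.15) were so low in striatum that the added 1 sets the size of their values, and their folds of means were 5.28 and 6.28. For Dsp the latter rests on 7 recovered fragments in the 4 striatal inputs together. The striatal astrocyte median was 3.83. Without scaling the median of all genes for hippocampal IP over input moved from -0.10 to -0.51 (in striatum from 0.01 to -0.25), and Dsp to 0.63 and Cald1 to 0.83, both still above 0.

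**Figure D4:**
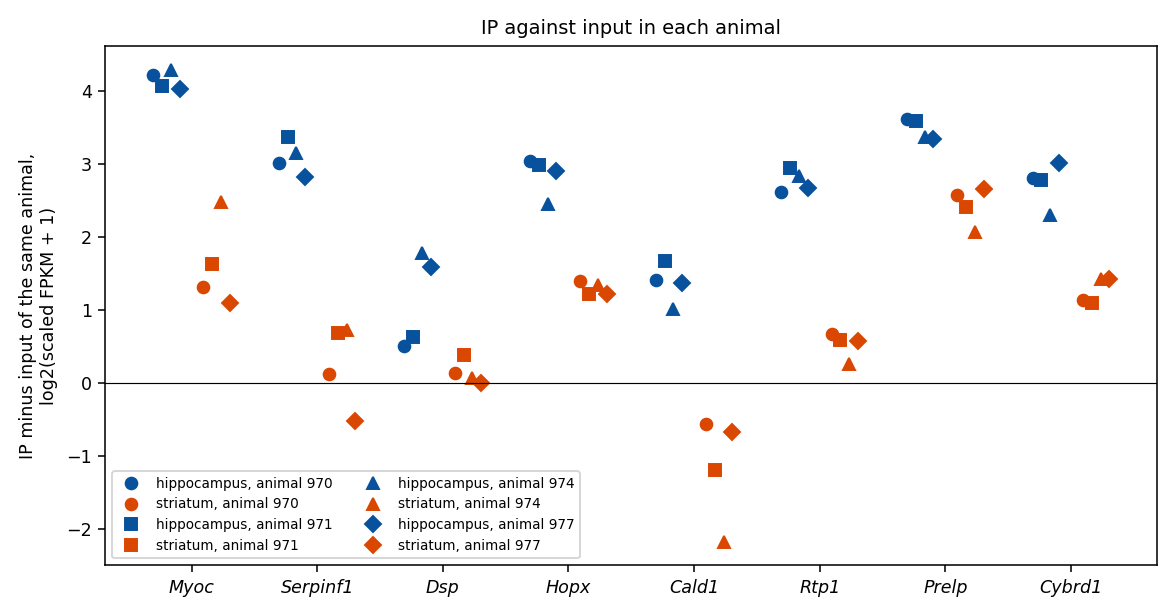
IP minus input of the same animal on the log2(scaled FPKM + 1) scale for the 8 genes; blue is hippocampus, orange is striatum and the symbol gives the animal. Blue points lie above 0 for each gene, and the 4 orange points of Cald1 lie below 0.

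Meningeal fibroblasts are known to express secreted and matrix genes such as Serpinf1, Prelp and Bgn. The 13 meningeal markers summed to 32.9 to 42.6 in hippocampal input, 11.2 to 15.4 in striatal input, 9.84 to 21.6 in hippocampal IP and 5.70 to 8.51 in striatal IP, and 0 of 13 were at 0 in all libraries of a group. The listed markers differed among themselves. Islr was higher in hippocampal than in striatal input (1.97 against 0.176, log2 difference 1.33, limma, adjusted p = 0.0002). Its hippocampal IP level was also above striatal IP (0.98, adjusted p = 0.00707) and above hippocampal input (1.14, adjusted p = 0.000266). Fmod (1.41, adjusted p = 0.00165) and Igf2 (0.64, adjusted p = 0.0467) were higher in hippocampal than in striatal IP. Neither was called between the inputs (adjusted p = 0.112 and 0.13). Decorin (Dcn) was at 15.5 ± 2.55 in hippocampal and 1.37 ± 0.194 in striatal input (log2 difference 2.79, limma, adjusted p = 6.07e-10). In the IPs it was at 0.921 ± 0.325 and 0.0543 ± 0.0887 (0.85, adjusted p = 0.000778). Lumican (Lum) was at 2.08 and 1.28 in the inputs (limma, adjusted p = 0.153) and at 0.157 and 0.287 in the IPs (adjusted p = 0.812). The collagen gene Col1a2 was close between the inputs (1.27 and 1.03, adjusted p = 0.361). It was lower in hippocampal than in striatal IP (1.05 against 2.75, log2 difference -0.86, adjusted p = 0.000233). Of 9 markers tested, 4 were higher and 0 lower in hippocampal input than in striatal input, and 4 were higher and 1 lower between the IPs (3 and 1 without scaling). In hippocampal IP against hippocampal input 1 was higher and 5 were lower (7 without scaling). The part of these cells in the levels of the 8 genes was not tested.

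Markers of fibrous and surface astrocytes were also higher in hippocampus. Of 7 tested, 4 were higher and 0 lower in hippocampal IP, with and without scaling. Gfap, the intermediate filament gene, was at 276 ± 25.6 against 49.0 ± 13 (log2 difference 2.50, adjusted p = 1.33e-06). Fabp7, a fatty acid binding protein gene of radial and immature astrocytes, was at 360 ± 48.2 against 104 ± 15.6 (1.78, adjusted p = 1.33e-06). Vimentin (Vim, 84.2 ± 8.12 against 44.7 ± 6.14, 0.90, adjusted p = 0.000156) and the water channel gene Aqp4 (585 ± 55.2 against 276 ± 46.6, 1.09, adjusted p = 0.00565) had smaller differences. The 8 markers summed to 1371 to 1559 in hippocampal and 580 to 737 in striatal IP. General astrocyte markers were nearer to equal, with 5 of 12 higher and 0 lower (4 and 0 without scaling) and a median of 0.38. Those with the largest difference besides Aqp4 were the connexin genes Gjb6 (0.83, adjusted p = 0.0032) and Gja1 (0.78, adjusted p = 0.00959) and the glutamate transporter gene Slc1a3 (0.62, adjusted p = 0.0278). The part of fibrous and surface astrocytes in the levels of the 8 genes was not tested.

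Against all genes, the 8 stood at the upper left of the plot of the 2 IPs. With the lowest hippocampal IP level of the 8 (10.6) and their smallest IP difference (2.34) taken as bounds, 14 genes lay inside. The other 6 were Nrn1 (3.80), Slc17a7 (3.23), Ttr (2.59), Cck (2.58), Ptgds (2.55) and Gfap (2.50). Slc17a7, the vesicular glutamate transporter gene, Nrn1 and Cck are known neuronal genes, and Ttr is the leading gene of the choroid plexus. The Ttr level in hippocampal IP was very uneven between animals, from 1.70 to 66.8 (21.5 ± 30.8, SD), and its IP difference had an SE of 0.81. Just outside the bound were Pdgfd (2.28) and Hsd11b1 (2.24), and just inside were Cybrd1 and Prelp (2.40). These values chose the genes and are a description. Without scaling the median of all genes between the IPs moved from 0.02 to -0.11, and the differences of the 8 genes kept their sign, with Hopx at 3.28 and Cybrd1 at 2.15.

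**Figure D5:**
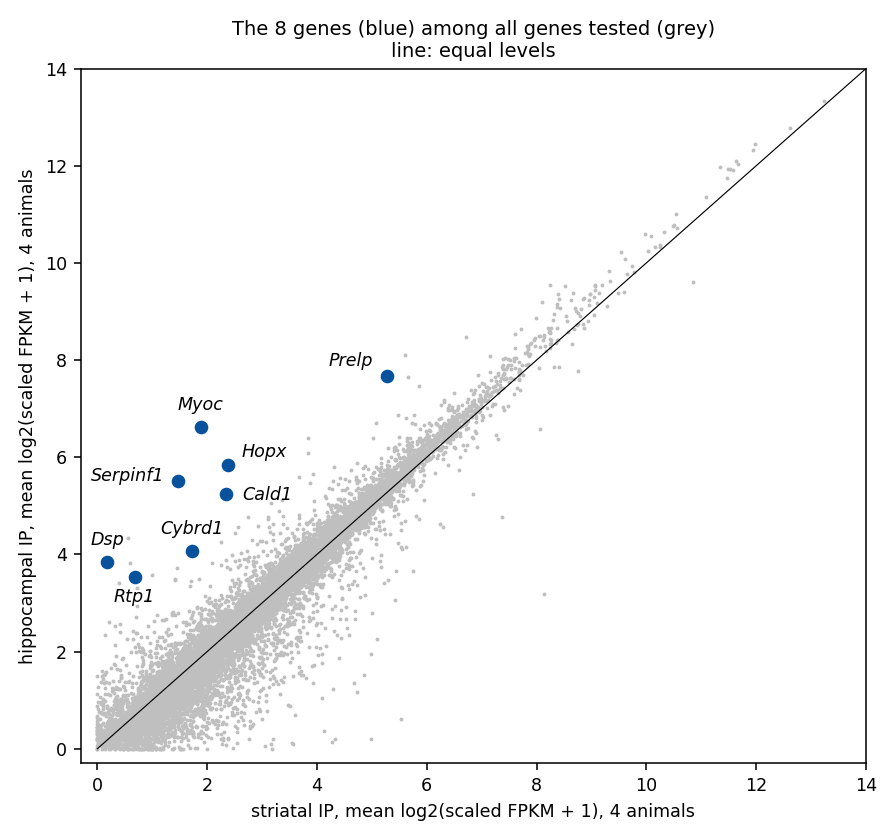
Mean level of 13449 genes in striatal IP (horizontal) and hippocampal IP (vertical), both as log2(scaled FPKM + 1) over 4 animals, with the 8 genes in blue and a line at equal levels. The 8 genes lie above the line, from Dsp near 0 in striatal IP to Prelp at the right.

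Across the 16 libraries the log2 levels of the 8 genes were related to each other to different degrees. Pearson's r is given as a description, since the libraries share animals, depth and the same 4 groups. It was highest for Hopx with Myoc (0.98), Prelp with Cybrd1 (0.97) and Hopx with Cybrd1 (0.97), and lowest for Prelp with Cald1 (0.54) and Cybrd1 with Cald1 (0.65). Cald1 and Dsp, the 2 cytoskeletal genes, were the least like the rest. Prelp with Dsp had r = 0.68.

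The genes outside the 8 that were most like each of them repeated across members. Eya1, a transcription co-factor with phosphatase activity, was among the 3 nearest genes of Myoc (0.97), Serpinf1 (0.95), Hopx (0.97) and Cybrd1 (0.98), and stood at 22.8 in hippocampal and 4.98 in striatal IP. Plat, the tissue plasminogen activator gene, and Il17rd, an inhibitor of fibroblast growth factor signalling, were the nearest to Myoc (0.97 each) and Hopx (0.98 and 0.99). Serpinf1 was nearest to the transcription factor genes Dmrt3 (0.97) and Zic2 (0.97), with Zic2 at 9.70 in hippocampal and 0.327 in striatal IP. Rtp1 was nearest to Angpt1 (0.98), the angiopoietin 1 gene (6.73 and 0.670), Pdgfd (0.98), a platelet-derived growth factor gene (12.4 and 1.80), and Zic2 (0.97).

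Prelp was nearest to Csf1 (0.99), the macrophage growth factor gene (7.61 in hippocampal and 3.11 in striatal IP), Hsd11b1 (0.98), the glucocorticoid-activating enzyme gene (67.0 and 13.4), and the adhesion adaptor gene Pxn (0.98). Cybrd1 shared Csf1 (0.97) with Prelp and Pdgfd (0.98) with Rtp1. The 2 cytoskeletal genes had neighbours of their own. Dsp was nearest to Lhfpl2 (0.97), Asph (0.96) and the semaphorin co-receptor gene Nrp2 (0.95), which stood at 2.59 in hippocampal IP and 2.77 in hippocampal input against 0.359 and 0.283 in striatum. Cald1 was nearest to the caveolin gene Cav1 (0.94), at 5.6 and 0.620 in the IPs and 1.84 and 1.75 in the inputs, the GABA receptor subunit gene Gabra2 (0.93) and Ptchd4 (0.93).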

How the data were processed

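Gene levels came from the 16 tables the authors deposited, 1 per library, whose values are FPKM by the series description used here and by their range (sums of 216830.8 to 246166.1 per library). The submitters' processing notes name bcl2fastq 2.17, the aligner STAR, the counter HTSeq and the build mm10. The gene annotation behind the FPKM is not given in the sources used here. Of 24060 labels, 27 looked like dates and 2 were repeated, and these were left out.

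FPKM were divided by a trimmed-mean scaling factor (0.746 to 1.30, trimming 30% of log ratios and 5% of levels at each end). The 13449 genes that reached 1 FPKM in 4 or more libraries were fitted as log2(scaled FPKM + 1) with limma 3.58.1 in R 4.3.3, with trended and robust variance, the 4 groups as terms and 12 residual degrees of freedom. P-values were adjusted by the Benjamini-Hochberg method over all genes tested, with calls at adjusted p under 0.05, and the fit was tested on simulated data. A count test was not run because the unit is FPKM.

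The members and the 9 family and 12 cell type lists were chosen with earlier results of these data known. Named besides the 8 genes were Aldh1l1, Gfap and Rpl22, up to 4 called genes per list with the largest IP region difference and at least 1 FPKM in either IP (the 2 most abundant where none was called), and the 3 genes most correlated with each member; genes named outside this rule were chosen after their values were seen. Libraries with the same number in the labels were read as coming from the same animal. After group means were removed, their correlation over genes was 0.308 to 0.532 between the IPs and 0.054 to 0.319 between the inputs. Between input and IP it was 0.085 to 0.172 in hippocampus and -0.008 to 0.085 in striatum.

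Depth was estimated from the FPKM steps of low genes and GENCODE lengths (22735 labels matched, 94.6%), so fragment numbers are estimates. Coordinates are from GENCODE (GRCm38, which is mm10). Alternatives were no scaling, 0.1 or 5 added in place of 1, no filter or at least 5 FPKM, the animal as a replicate block, only the 2 groups compared, each animal left out, and the striatal inputs of 971 and 974 left out. Figures used Python 3.11.15, pandas 2.3.3 and matplotlib 3.10.9.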

Additional observations from a re-analysis of the deposited data

Results flagged for a closer look

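Cald1 moved in opposite directions in the 2 regions. On the log2(scaled FPKM + 1) scale it was 1.37 higher in hippocampal IP than in hippocampal input and stood at -1.15 in striatal IP against striatal input. Without the striatal inputs of 971 and 974, which stood apart, the striatal value was -0.62. Every one of the 4 animals had the first sign in hippocampus and the other in striatum, and the difference between the regions was not tested, because the IP values entered the choice of the gene. None of the 32 sets of 4 libraries (8 genes in 4 groups) had a library set apart by Dixon's gap ratio.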

How the results depend on the processing

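The input differences of the 8 genes kept their sign under every alternative run. Of 95 alternative values for them, 90 stayed on the same side of the threshold, 2 passed in addition (both Cald1) and 3 no longer passed (all Rtp1), as given in the report. The number of the 8 genes called in input ran from 6 to 8 with each animal left out, and was 7 in the reported fit and 6 with 5 added to each value. With the animal as a replicate block it was 7 of 8, and the block changed no call among the 8 genes; the fit then called 5320 genes in input (4886 without it) and 1983 between the IPs (1687 without it). Leaving out an animal gave 2591 (without 971) to 4172 called genes in input. Between the IPs it gave 829 (without 977) to 1290, with 991 without 970 and 974 without 971. With no scaling the calls between the IPs went from 722 higher and 965 lower to 442 and 1002, those of hippocampal IP over input from 4047 and 4766 to 2488 and 7103, and those of striatal IP over input from 4506 and 4228 to 3142 and 5564. Of 95 alternative values each, 15 IP differences of the 8 genes and 17 of hippocampal IP over input moved by more than the spread between animals, with no change of sign, under no scaling or another added constant. Low counts limit Dsp and Myoc in striatal input and Rtp1 in both inputs. Hopx (an estimated 16, 12, 6 and 18 fragments), Cybrd1 (27, 17, 5 and 12) and Serpinf1 (44, 17, 6 and 39) were also low in striatal input.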
